A study of Mus musculus with 6 samples.

Results

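The 10 genes described here encode proteins of the BCL2 family, which decide at the mitochondrial outer membrane whether a cell enters apoptosis. They were chosen by name from a total of 36137 annotated genes by their place in the family, not by a threshold on any measured value, although earlier results of these data were known. The list holds 4 pro-survival members (*Bcl2*, *Bcl2l1*, *Mcl1* and *Bcl2a1b*), 2 pore-forming effectors (*Bax* and *Bak1*) and 4 BH3-only activators or sensitizers (*Bid*, *Bcl2l11*, *Bbc3* and *Pmaip1*). All 10 had enough counts to be tested.

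The libraries came from bone marrow-derived macrophages (BMDMs) of Mus musculus, grown to day 7 of culture with L929-cell medium and then held for 8 hours in serum-free medium at 2.1% oxygen. This treatment is hypoxia with serum starvation (HSS), a culture model of ischemia. The WT group was LysM-Cre+/- *Drp1*+/+ and the *Drp1* KO group LysM-Cre+/- *Drp1* fl/fl, so both carried Cre. LysM is expressed across the myeloid lineage, neutrophils included, so deletion is not restricted to macrophages. Mice of both sexes aged 8 to 12 weeks were used, and marrow from 2 mice of each genotype was pooled. The labels call the 3 libraries of each genotype biological replicates, but the methods do not tie each one to a separate pool, so the p-values cover the spread between these libraries. All libraries analysed here had HSS, so each difference below is one between genotypes under HSS.

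As background, apoptosis through the mitochondrion starts when BAX or BAK forms pores in the outer membrane and cytochrome c leaks out to assemble the apoptosome. BCL-2, BCL-xL (the product of *Bcl2l1*), MCL-1 and A1 (the product of the Bcl2a1 genes) hold BAX, BAK and the BH3-only proteins in a groove on their surface. BH3-only proteins such as BIM (*Bcl2l11*), PUMA (*Bbc3*), NOXA (*Pmaip1*) and BID carry a short helix, the BH3 domain, that fills this groove. Much of their control lies after transcription, in protein turnover, cleavage and location, which mRNA does not report. DRP1, the mitochondrial fission GTPase deleted here, acts on the same membrane.

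The BH3 core is shown as the short motif by which the family is known, although not all members matched the form searched. It was searched in the translated main coding transcript of each member as leucine, any 3 residues, glycine and aspartate, which is 6 codons. *Bcl2*, *Bcl2l1*, *Mcl1*, *Bax*, *Bak1*, *Bid* and *Bcl2l11* had 1 match each, *Pmaip1* had 2, and *Bcl2a1b* and the paralogs *Bcl2a1a* and *Bcl2a1d* had none. *Bbc3* matched once when alanine was allowed in place of glycine. Among 21553 protein-coding genes, 13.5% held a match to the glycine form in their longest coding sequence, so a match alone does not mark a family member. Each line gives the coding strand of GRCm39, with the 18 bases of the core in capitals and 9 bases on either side.
*Bcl2* (chr1:106640305-106640340, minus strand): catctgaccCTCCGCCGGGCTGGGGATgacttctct
*Bcl2l1* (chr2:152671617-152671652, minus strand): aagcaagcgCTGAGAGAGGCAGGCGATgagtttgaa
*Mcl1* (chr3:95566738-95566773, plus strand): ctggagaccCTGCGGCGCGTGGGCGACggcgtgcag
*Bax* (chr7:45115421-45115456, minus strand): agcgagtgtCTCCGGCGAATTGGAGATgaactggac
*Bak1* (chr17:27241505-27241540, minus strand): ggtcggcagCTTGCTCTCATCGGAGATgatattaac
*Bid* (chr6:120874250-120874285, minus strand): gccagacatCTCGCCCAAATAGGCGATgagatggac
*Bcl2l11* (chr2:127989061-127989096, plus strand): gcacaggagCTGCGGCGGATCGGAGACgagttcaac
*Bbc3* (chr7:16047689-16047724, plus strand): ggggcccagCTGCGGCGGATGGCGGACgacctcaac

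Depth was 23389488 to 32231206 estimated reads per library. Levels within a gene are given in CPM (counts scaled to TMM-normalized library size), and levels between genes in TPM, which corrects for transcript length. Each log2 fold change compares *Drp1* KO with WT and is followed by its standard error (SE). A gene is called when edgeR's quasi-likelihood test gives a Benjamini-Hochberg adjusted p below 0.05, with the adjustment made over 18506 genes. Of these genes, 3.36% were called, 2.29% as higher, and the median log2 fold change was 0.005. The targeted gene *Dnm1l*, which encodes DRP1, was lower in each library labelled *Drp1* KO than in each WT library, at 58.7, 60.7 and 66.3 CPM against 72.7, 69.9 and 75.1 CPM, but was not called (log2 fold change -0.23 ± 0.092, adjusted p = 0.248). The paper reports deletion of DRP1 protein in BMDMs of the knockout mice by immunoblot, which gene-level counts do not measure. Summed CPM of 8 macrophage markers lay between 13412 and 14811 in WT and between 11992 and 14417 in *Drp1* KO BMDMs. The 10 neutrophil markers summed to between 52.7 and 66.9 CPM in WT and between 65.5 and 95.0 CPM in *Drp1* KO, with *Ly6g* at 0 throughout. The 10 lymphocyte markers summed to 311 to 328 CPM and 130 to 255 CPM, mostly from *Cd4*, with *Ncr1* at 0. The 8 cycling markers spanned 307 to 419 CPM and 266 to 396 CPM, the 6 dendritic cell markers 3.75 to 5.86 CPM and 2.45 to 4.49 CPM, and the 6 fibroblast markers 1.84 to 3.06 CPM and 1.89 to 2.00 CPM. The part of other cells in the values below was not tested, and in bulk RNA a change in the number of cells of a type and a change in RNA per cell cannot be told apart.

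In these BMDMs the family mRNA was dominated by *Mcl1*. Per length, *Mcl1* stood at 586 ± 26.8 TPM in WT and 533 ± 26.9 TPM in *Drp1* KO (SD, n = 3 each), 10.5 times the next member over the 6 libraries. It made up 80.8% to 87.9% of the TPM of the 4 pro-survival members, depending on the library. A second tier held 5 members whose ranges over the 6 libraries overlapped with their neighbours, so their order is not resolved. These were *Pmaip1* (mean 53.5 TPM), *Bcl2l11* (52.2 TPM), *Bax* (51.3 TPM), *Bcl2a1b* (50.4 TPM) and *Bcl2l1* (42.6 TPM). Below them, without overlap, came *Bak1* (17.6 TPM), followed by *Bbc3* (13.8 TPM), whose range overlapped with that of *Bak1*. *Bid* (8.29 TPM) and *Bcl2* (7.32 TPM) were lowest, separate from *Bbc3* but overlapping with each other. *Bcl2*, the founding member of the family, was thus the least abundant of the 10 per length in these cells.

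**Figure D1:**
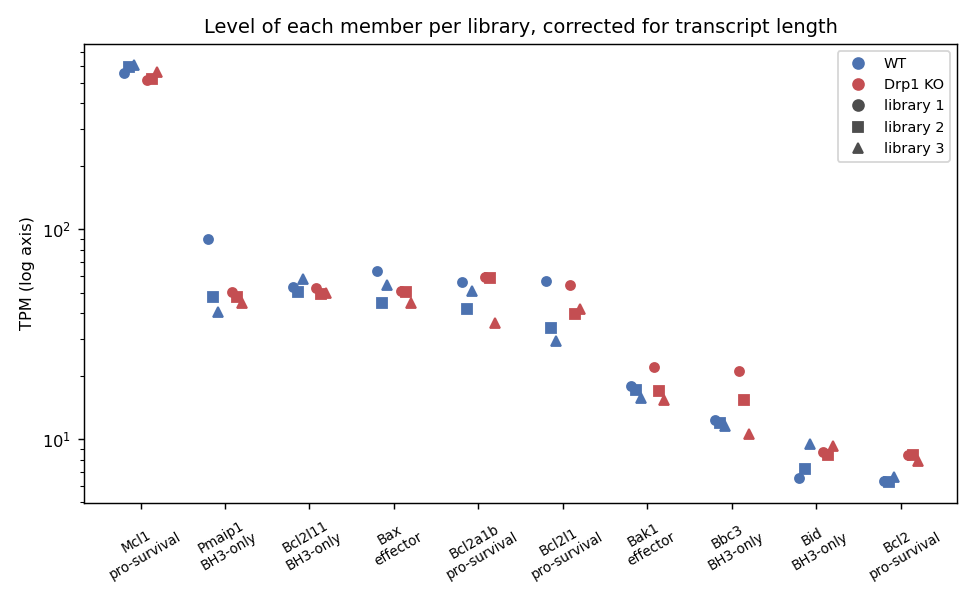
TPM of each member in each library on a log axis, ordered by the mean over the 6 libraries, with WT in blue, *Drp1* KO in red and the marker shape giving the library number. *Mcl1* stands alone at the top, 5 members lie between a mean of 42.6 and 53.5 TPM, and *Bid* and *Bcl2* lie lowest.

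Summed by role, the effectors had 70.9 ± 9.81 TPM in WT and 66.8 ± 6.69 TPM in *Drp1* KO, and the BH3-only members 133 ± 25.5 TPM and 122 ± 9.36 TPM (SD, n = 3 each). The pro-survival sum was 682 ± 11.8 TPM in WT and 637 ± 10.2 TPM in *Drp1* KO. It was lower in each *Drp1* KO library (628 to 648 TPM) than in each WT library (675 to 695 TPM), and was not tested. TPM carries no TMM scaling between libraries, and *Mcl1*, which supplied most of the sum, was not called and overlapped between groups in CPM. The other pro-survival members, *Bcl2*, *Bcl2l1* and *Bcl2a1b*, had positive log2 fold changes (0.46, 0.23 and 0.17). In CPM the groups did not overlap for 21.9% of all genes tested. Among the BH3-only members, *Bcl2l11* and *Pmaip1* together supplied 77.5% to 88.4% of the TPM.

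Between genotypes, 1 of the 10 members was called, against 3.36% of all genes tested. This was *Bcl2*, which rose in *Drp1* KO BMDMs, as 2.29% of all genes did. DESeq2 also called 1 member, *Bcl2*, against 8.80% of the genes to which it gave an adjusted p. By the study's thresholds, which correspond to a log2 fold change beyond 0.32 in either direction with unadjusted p below 0.05, the count was also 1 of 10, against 12.7% of all genes. The groups did not overlap for 1 member, *Bcl2* again, while they did not overlap for 21.9% of all genes tested. The members' median log2 fold change was 0.17, with 6 higher and 4 lower, and values ran from -0.25 to 0.46. That median was -0.037 with *Drp1* KO library 1 left out.

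Pairing the libraries by their number raised the members called to 2, *Bcl2* and *Bbc3*, while the share of all genes called went to 12.0%. Library 1 was the highest of the WT libraries for 8 members and the highest of the *Drp1* KO libraries for 9, a shift that the paired fit takes up. Without both libraries numbered 1, 1 member was called, *Bcl2*, against 10.5% of all genes.

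**Figure D2:**
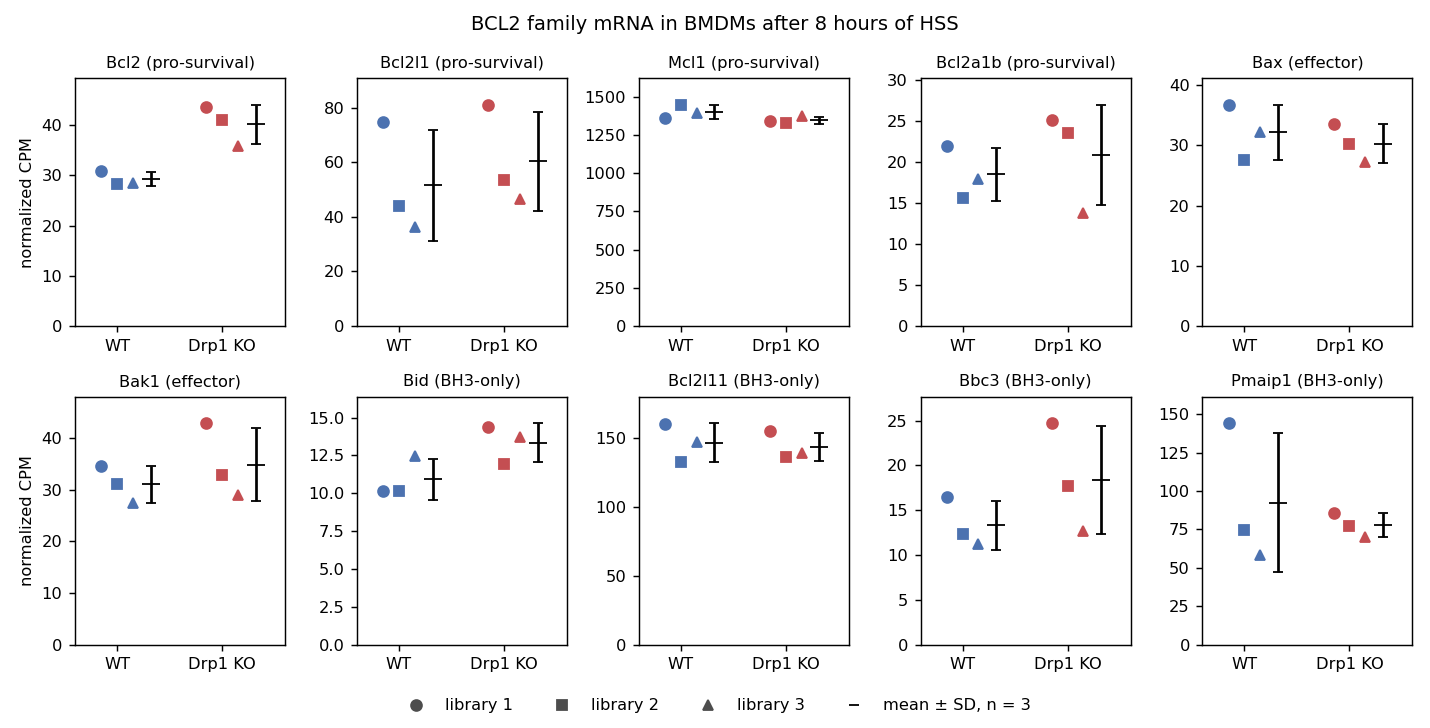
Normalized CPM of each member in each library, with WT in blue, *Drp1* KO in red, the marker shape giving the library number, and black bars giving the mean ± SD of 3 libraries, on axes that start at 0. The groups are separate for *Bcl2* and overlap for the other 9 members, and library 1 is the highest WT library in 8 panels and the highest *Drp1* KO library in 9.

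Among the pro-survival genes, *Bcl2* (ENSMUSG00000057329, chromosome 1, 106465908 to 106642060 of GRCm39) encodes the prototype inhibitor of BAX and BAK. It measured 30.96, 28.3 and 28.6 CPM in WT libraries 1 to 3 and 43.5, 41.0 and 35.9 CPM in *Drp1* KO libraries 1 to 3. Each *Drp1* KO library was above each WT library, which gives the smallest exact permutation p that 3 libraries against 3 allow, 0.1 (two-sided). The log2 fold change was 0.46 ± 0.11 (adjusted p = 0.0499), only just inside the threshold. With pairing the adjusted p was 0.00581 (edgeR), and with DESeq2 it was 0.0129. The call was lost without WT libraries 2 (0.241) or 3 (0.220) and without *Drp1* KO libraries 1 (0.0902) or 2 (0.166), while the log2 fold change stayed between 0.38 and 0.53 with a library left out. It was also lost with limma-voom (0.0521), with size factors by the median of ratios (0.0598) and with length-scaled counts (0.0781). The long transcript Bcl2-201, with 708 coding bases, carried 84.1% to 92.7% of the gene's TPM with overlapping shares in both groups.

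*Bcl2l1* (chromosome 2, 152622582 to 152673655) encodes BCL-xL. It measured 74.8, 43.9 and 36.1 CPM in WT and 81.0, 53.4 and 46.5 CPM in *Drp1* KO. The spread among libraries of a genotype was larger than the difference between genotypes, yet *Drp1* KO was the higher in each of the 3 same-numbered pairs. The log2 fold change was 0.23 ± 0.27 (adjusted p = 0.771), and 0.25 ± 0.080 with pairing (adjusted p = 0.0679, edgeR). It turned to -0.057 without *Drp1* KO library 1.

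*Mcl1* (chromosome 3, 95566026 to 95570487) encodes a short-lived protein on which many myeloid cells depend. It measured 1363, 1447 and 1394 CPM in WT and 1340, 1328 and 1374 CPM in *Drp1* KO. The groups overlapped narrowly, and the log2 fold change was -0.056 ± 0.091 (adjusted p = 0.849). With 111122 counts in WT and 117810 in *Drp1* KO it was the most deeply sampled member. Its fold change stayed between -0.078 and -0.041 with any library left out.

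*Bcl2a1b* (chromosome 9, 89081262 to 89089889) is one of the mouse genes for A1, an NF-kB target in myeloid cells. It measured 22.0, 15.6 and 17.99 CPM in WT and 25.2, 23.5 and 13.8 CPM in *Drp1* KO. *Drp1* KO held both the highest values and the lowest, and the log2 fold change was 0.17 ± 0.21 (adjusted p = 0.793), with -0.00035 without *Drp1* KO library 1.

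The A1 genes are near copies, which limits how far reads can be assigned to one of them. The coding sequences have 516 bases each and differ at 11 bases between *Bcl2a1a* and *Bcl2a1b*, at 7 between *Bcl2a1a* and *Bcl2a1d*, and at 6 between *Bcl2a1b* and *Bcl2a1d*. The first 60 coding bases of each are shown from GRCm39, with bases at which the copies are not all alike in capitals.
*Bcl2a1a* (chr9:88839104-88839163, plus strand): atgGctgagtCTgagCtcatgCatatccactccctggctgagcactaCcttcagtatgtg
*Bcl2a1b* (chr9:89081413-89081472, plus strand): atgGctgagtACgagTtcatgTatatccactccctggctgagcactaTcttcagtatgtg
*Bcl2a1d* (chr9:88613713-88613772, minus strand): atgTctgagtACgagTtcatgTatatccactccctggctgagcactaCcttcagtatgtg
Of the 31-base words in each transcript, the length kallisto uses by default, 27.9% in *Bcl2a1b*, 21.7% in *Bcl2a1a* and 10.9% in *Bcl2a1d* occurred in no other copy. The values of single copies are therefore uncertain.

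*Bcl2a1d* was listed at 2.07, 1.91 and 1.53 CPM in WT and 4.68, 4.12 and 3.77 CPM in *Drp1* KO, with no overlap. It was called higher, at a log2 fold change of 1.19 ± 0.21 (adjusted p = 0.0155), a call lost when WT library 2 (0.0834) or 3 (0.0900), or library 2 of *Drp1* KO (0.0702), was left out. *Bcl2a1a* was listed at 1.34, 0.900 and 0.579 CPM in WT and 2.32, 1.80 and 1.78 CPM in *Drp1* KO. Its groups did not overlap either, but it was not called (log2 fold change 1.07 ± 0.34, adjusted p = 0.131). It passed with pairing (0.0195, edgeR), without WT library 1 (0.0492) and without both libraries numbered 1 (0.0370).

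Summing the copies removes the assignment between them. The summed level was 25.4, 18.4 and 20.1 CPM in WT and 32.2, 29.5 and 19.4 CPM in *Drp1* KO. These groups overlapped, and the log2 ratio of the means was 0.34 (exact permutation test, two-sided p = 0.3). With pairing it was 0.32 ± 0.12 (adjusted p = 0.129, edgeR). The share of the sum assigned to *Bcl2a1b* was 86.9% ± 2.39 in WT and 76.5% ± 4.53 in *Drp1* KO (SD, n = 3 each), without overlap between the groups. A1 is also expressed in neutrophils, and of the 8 neutrophil markers tested 4 were higher by the study's thresholds, against 7.19% of all genes, with 0 called (edgeR). Of these markers, 2 were called by DESeq2, 4 with pairing and 4 without both libraries numbered 1. The shares of all genes called in these fits were 8.80%, 12.0% and 10.5%. *Ngp*, a granule protein gene, measured 0.862, 3.22 and 2.49 CPM in WT and 4.09, 7.39 and 5.03 CPM in *Drp1* KO (log2 fold change 1.32 ± 0.39, adjusted p = 0.107). *S100a8* and *S100a9*, which encode the subunits of calprotectin, averaged 2.99 ± 0.997 and 8.59 ± 4.56 CPM in WT against 7.78 ± 4.25 and 21.2 ± 8.87 CPM in *Drp1* KO, at log2 fold changes of 1.38 ± 0.42 and 1.30 ± 0.42 (adjusted p = 0.122 and 0.139). The most abundant of these markers in each library was *Csf3r*, which averaged 45.3 ± 1.66 CPM in WT against 43.9 ± 2.00 CPM in *Drp1* KO (-0.045 ± 0.092, adjusted p = 0.889). The part of neutrophil RNA in the A1 values was not tested.

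Of the effectors, *Bax* (chromosome 7, 45111015 to 45116325) encodes the protein that moves from the cytosol into the outer membrane. It measured 36.7, 27.6 and 32.2 CPM in WT and 33.5, 30.2 and 27.2 CPM in *Drp1* KO. The groups overlapped over most of their range, at a log2 fold change of -0.086 ± 0.13 (adjusted p = 0.836), which was 0.015 without WT library 1. *Bak1* (chromosome 17, 27238784 to 27247983) encodes the effector that resides in that membrane. It measured 34.7, 31.1 and 27.4 CPM in WT and 42.9, 32.8 and 29.0 CPM in *Drp1* KO, a log2 fold change of 0.17 ± 0.15 (adjusted p = 0.678) that was -0.017 without *Drp1* KO library 1. The gene-level counts thus showed no called difference for either effector.

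The transcripts assigned to *Bak1* differed in share between genotypes. Bak1-202, with 627 coding bases, is the full-length coding transcript, while Bak1-201 and Bak1-204 are annotated as targets of nonsense-mediated decay. Bak1-201 carries a further exon of 20 bases at chr17:27240637-27240656, and Bak1-204 starts an exon 5 bases later than Bak1-202, leaving out chr17:27241847-27241851. The first exon also differs, with 599 bases in Bak1-202 against 168 in Bak1-201 and 177 in Bak1-204. Of the 2357 31-base words of Bak1-202, 424 occurred in neither of the other transcripts. The shares below therefore do not rest on the 20-base and 5-base sites alone. The sequences around both of these sites are shown on the minus strand of GRCm39, with the 20 bases and the 5 bases in capitals.
Bak1-201, added exon (chr17:27240607-27240686): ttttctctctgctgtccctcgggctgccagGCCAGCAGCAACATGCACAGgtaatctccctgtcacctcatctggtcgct
Bak1-204, bases left out (chr17:27241802-27241881): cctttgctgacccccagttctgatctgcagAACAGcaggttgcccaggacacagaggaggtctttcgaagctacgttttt

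Bak1-204 was estimated at 3.71, 4.27 and 3.51 TPM in WT and 10.9, 8.998 and 7.19 TPM in *Drp1* KO. Its share of the gene's TPM was 22.7% ± 2.11 in WT and 49.5% ± 3.13 in *Drp1* KO (SD, n = 3 each), without overlap. Bak1-201 went the other way, with a share of 34.6% ± 16.4 and 6.59% ± 7.03, also without overlap, and was nearly absent in *Drp1* KO library 2 at 0.020 TPM. The shares of the coding Bak1-202 overlapped, between 25.9% and 62.5% in WT and between 36.8% and 47.8% in *Drp1* KO. Both decay-annotated transcripts together held 57.2% ± 18.5 and 56.1% ± 6.12 of the TPM, with overlap. In a fit over 62316 transcripts added after the data were seen, 0.334% of them were called, and no member transcript was. Bak1-204 had the smallest p of them, with a log2 fold change of 1.30 ± 0.22 (adjusted p = 0.0825, and 0.146 with pairing, edgeR). Only 29 of the 1928 31-base words of Bak1-204 and 47 of the 1944 of Bak1-201 occurred in neither of the other 2 transcripts, so these estimates rest on few distinguishing reads.

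Across the family, 24 transcripts of the 9 members with more than 1 annotated transcript held at least 5% of their gene's TPM, and *Bcl2a1b*, which has a single one, was left out. The shares of 4 did not overlap between genotypes, 16.7% of them, beside 17.2% of all such transcripts, so the family does not stand out in this measure. Besides the pair from *Bak1* these were Bcl2l1-203 and Pmaip1-201. Bcl2l1-203, with 564 coding bases in place of the 699 that encode BCL-xL, had shares of 7.02%, 11.3% and 13.8% in WT and of 3.50%, 3.81% and 2.02% in *Drp1* KO, and was not called (adjusted p = 0.223, edgeR over transcripts). Pmaip1-201 carried 98.5% to 98.7% and 97.4% to 98.0%. Bcl2l11-204, which encodes the longest BIM form with 588 coding bases, held 58.1% to 67.3% of its gene's TPM in WT and 55.2% to 61.1% in *Drp1* KO. The shorter Bcl2l11-202, with 420 coding bases, held 12.2% to 15.5% and 13.3% to 18.3%, and both overlapped.

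**Figure D3:**
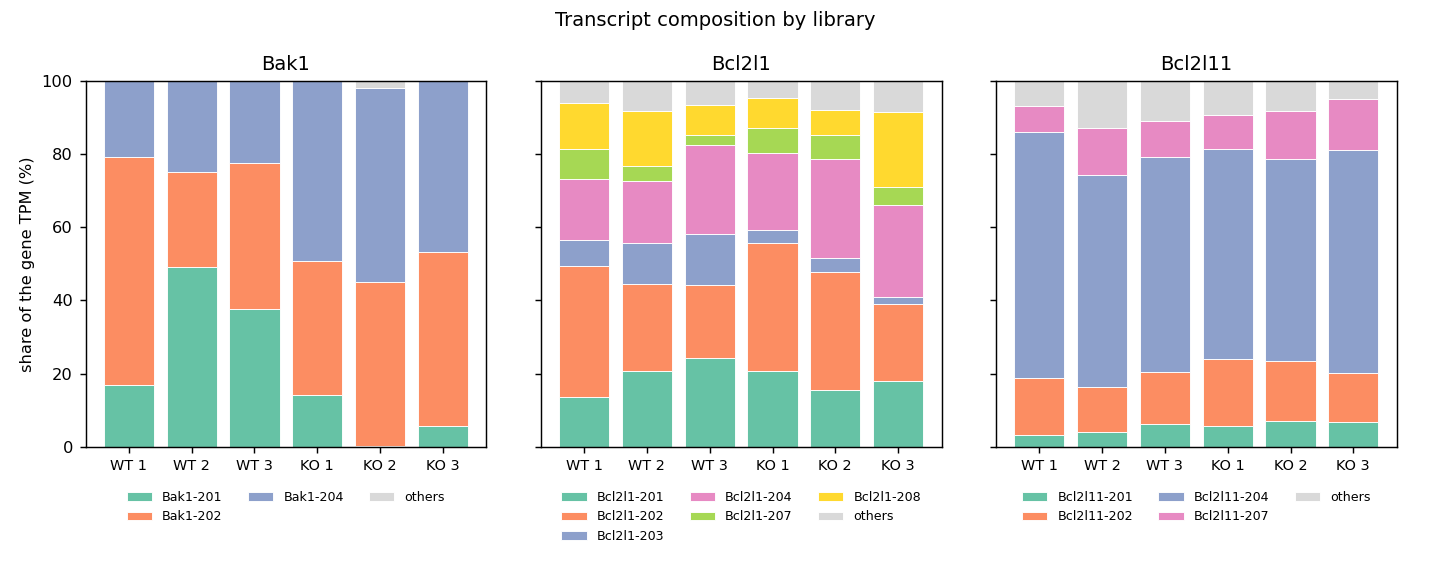
Share of each gene's TPM (percent) assigned to each transcript with at least 5% of it, in WT and *Drp1* KO libraries 1 to 3, for *Bak1*, *Bcl2l1* and *Bcl2l11*, with the remainder in grey. Bak1-204 takes 20.7% to 24.9% in WT and 46.6% to 52.8% in *Drp1* KO, while the shares of the *Bcl2l11* transcripts overlap between genotypes.

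Of the BH3-only genes, *Bbc3* (chromosome 7, 16042318 to 16052130) encodes PUMA, a p53 target that binds all the pro-survival proteins. It measured 16.4, 12.3 and 11.2 CPM in WT and 24.7, 17.7 and 12.7 CPM in *Drp1* KO. *Drp1* KO was the higher within each same-numbered pair, although the groups overlapped. The log2 fold change was 0.46 ± 0.23 (adjusted p = 0.365), of the same size as that of *Bcl2* but with a larger error. With pairing it was 0.43 ± 0.11 and passed (adjusted p = 0.0266, edgeR), and it did not pass in any other alternative tried. It was 0.18 when *Drp1* KO library 1 was left out, and 0.37 when both libraries numbered 1 were.

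*Bid* (chromosome 6, 120862525 to 120894171) encodes the protein that caspase-8 cleaves to link death receptors with the mitochondrion. It measured 10.2, 10.1 and 12.5 CPM in WT and 14.4, 11.9 and 13.7 CPM in *Drp1* KO. The groups overlapped by 1 library on each side, at a log2 fold change of 0.29 ± 0.14 (adjusted p = 0.352), and 0.22 to 0.38 with a library left out. *Bcl2l11* (chromosome 2, 127967958 to 128004476) encodes BIM, which growth factor withdrawal induces in hematopoietic cells. It measured 160, 132 and 147 CPM in WT and 155, 136 and 139 CPM in *Drp1* KO. The *Drp1* KO values fell inside the WT range, at a log2 fold change of -0.031 ± 0.10 (adjusted p = 0.939).

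*Pmaip1* (chromosome 18, 66591604 to 66598636) encodes NOXA, a selective partner of MCL-1 and A1. It measured 144, 74.4 and 58.6 CPM in WT and 85.7, 77.1 and 70.1 CPM in *Drp1* KO. WT library 1 stood far above the rest, and the log2 fold change of -0.25 ± 0.27 (adjusted p = 0.736) turned to 0.22 without that library. Without both libraries numbered 1 it was 0.14. The direction of *Pmaip1* therefore rested on 1 library.

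**Figure D4:**
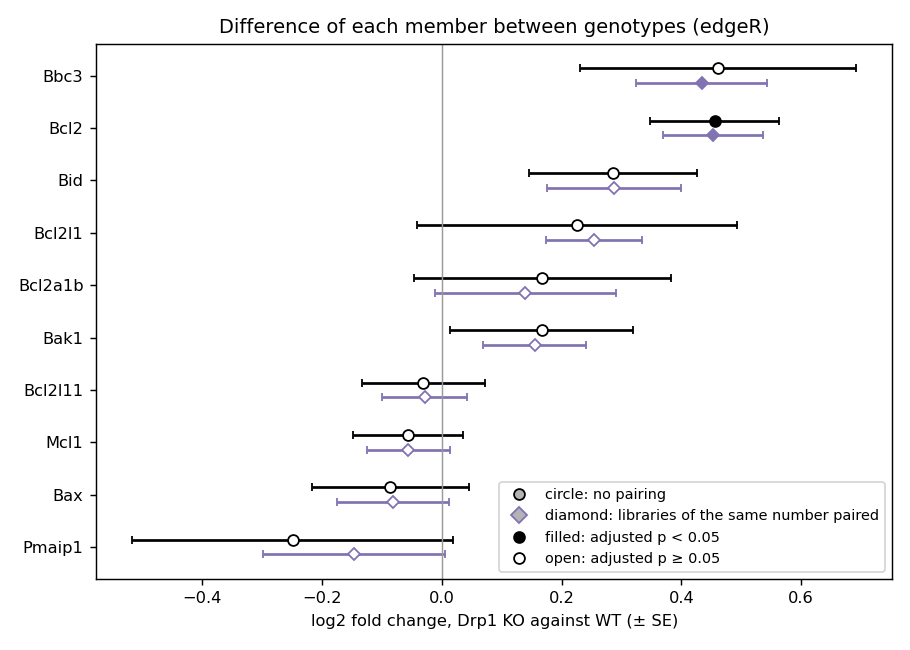
Log2 fold change of each member in *Drp1* KO against WT with its standard error, from edgeR without pairing (circles) and with libraries of the same number paired (diamonds), filled where the adjusted p is under 0.05. Only *Bcl2* is filled without pairing, and *Bcl2* and *Bbc3* are filled with it.

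The other BCL2 family genes numbered 13, of which 11 had enough counts. Among them 1 was called higher, *Bcl2a1d*, and 0 lower, with a median log2 fold change of -0.16 (-0.77 to 1.19), against -0.25 to 0.46 for the 10 members. *Bad*, the BH3-only gene that growth factor kinases silence at the protein level, measured 14.7, 14.1 and 15.1 CPM in WT and 12.2, 13.5 and 12.2 CPM in *Drp1* KO. Its groups did not overlap, but it was not called (-0.21 ± 0.12, adjusted p = 0.435). *Bcl2l10* was at 0 in all libraries, and *Hrk* had too few counts to be tested.

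Downstream of the pore, none of the 13 apoptosome, caspase and released-factor genes was called, although 4 had an unadjusted p under 0.05 (edgeR), and 1 was called by DESeq2. *Diablo*, whose product SMAC is released with cytochrome c and blocks IAP proteins, averaged 27.2 ± 1.08 CPM in WT against 21.9 ± 1.31 CPM in *Drp1* KO (log2 fold change -0.32 ± 0.10, adjusted p = 0.145, and 0.0345 with pairing, edgeR). With pairing, 2 genes of the list were called higher and 2 lower, the latter being *Diablo* and *Aifm1*, beside 12.0% of all genes called.

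Of 6 IAP genes, which encode caspase inhibitors and ubiquitin ligases, 5 were tested and 0 were called, with 1 at an unadjusted p under 0.05 (edgeR) and 0 called by DESeq2. *Birc2*, which encodes cIAP1, averaged 34.4 ± 2.24 CPM in WT against 42.1 ± 5.34 CPM in *Drp1* KO (0.29 ± 0.12, adjusted p = 0.245, and 0.0494 with pairing). *Xiap* differed by 0.094 ± 0.096 and *Birc3* by 0.085 ± 0.11 on the log2 scale.

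Among 8 genes for partners of the family at the outer membrane, 1 was called. *Tmbim4*, a gene of the BAX inhibitor-1 family, rose from 33.1 ± 1.64 CPM in WT to 44.7 ± 3.47 CPM in *Drp1* KO (0.43 ± 0.10, adjusted p = 0.0483, and 0.00546 with pairing). The call was lost without WT libraries 2 (0.227) or 3 (0.233) and without *Drp1* KO libraries 1 (0.0856), 2 (0.161) or 3 (0.0535). It was also lost with size factors by the median of ratios (0.0590), limma-voom (0.0503), length-scaled counts (0.150) and only protein_coding transcripts (0.0537). *Mtch2*, which encodes an outer membrane insertase that also recruits BID, was at 49.2 ± 3.42 CPM and 61.4 ± 0.894 CPM (0.32 ± 0.093, adjusted p = 0.102, and 0.0213 with pairing). *Vdac3* had a log2 fold change of 0.30 ± 0.14 (adjusted p = 0.305).

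Of 8 genes that control the turnover of family proteins, 1 was called. *Marchf5*, a ubiquitin ligase of the outer membrane that acts on DRP1 and on the stability of MCL-1 and NOXA, rose from 79.8, 66.3 and 65.2 CPM in WT to 113, 94.9 and 94.2 CPM in *Drp1* KO. The log2 fold change was 0.52 ± 0.12 (adjusted p = 0.0408, and 0.00116 with pairing), and the groups did not overlap. The call was lost without WT libraries 2 (0.230) or 3 (0.217) and without *Drp1* KO libraries 1 (0.0795), 2 (0.0933) or 3 (0.0616). It was also lost with size factors by the median of ratios (0.0517) and with length-scaled counts (0.0620). *Otud1*, a deubiquitinase gene, had 0.29 ± 0.14 (adjusted p = 0.328). *Usp13* had 10 counts in WT and 4 in *Drp1* KO, too few to show a difference.

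The p53 list, of 12 genes, holds *Trp53* with its regulators and targets, and *Bbc3*, *Bax* and *Pmaip1* among the members are themselves known p53 targets. Without pairing these members had log2 fold changes of 0.46, -0.086 and -0.25, and none was called. The part of p53 in the members' values was not tested. The list's median log2 fold change was 0.35, with 11 of 12 genes higher, and 2 were called higher and 0 lower. Over all genes tested the median was 0.005 and 2.29% were called higher. *Trp53inp1* rose from 114 ± 3.43 CPM to 157 ± 15.7 CPM (0.47 ± 0.099, adjusted p = 0.0329), and *Eda2r*, which encodes a TNF receptor family member, from 0.996 ± 0.119 CPM to 2.41 ± 0.353 CPM (1.27 ± 0.26, adjusted p = 0.0269). With only protein_coding transcripts both calls were lost, *Trp53inp1* at a log2 fold change of 0.17 (adjusted p = 0.584) and *Eda2r* at 1.23 (0.0689), and with length-scaled counts the adjusted p-values were 0.0627 and 0.0843. Both calls were also lost without WT libraries 2 (0.196 and 0.143) or 3 (0.175 and 0.104) and without *Drp1* KO libraries 2 (0.145 and 0.146) or 3 (0.0983 and 0.0643). *Ccng1* was at 333 ± 14.2 CPM and 435 ± 57.4 CPM (0.39 ± 0.11, adjusted p = 0.102). With pairing, 5 genes of the list were called higher, *Eda2r*, *Trp53inp1*, *Ccng1*, *Cdkn1a* and *Phlda3*, and 1 lower, *Zmat3*, while 12.0% of all genes were called in that fit. *Trp53* itself differed by 0.14 ± 0.14 on the log2 scale.

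The 11 stress regulators are transcription factors that act on BH3-only or stress genes, such as FOXO3 for *Bcl2l11* and *Bbc3* and the ATF4 and CHOP pair for *Bbc3* and *Pmaip1*, together with the stress-induced genes *Trib3* and *Chac1*. Their median log2 fold change was 0.05, and 1 was called. *Trib3*, a target of ATF4 and CHOP, rose from 22.5, 15.03 and 14.1 CPM in WT to 42.4, 37.4 and 24.4 CPM in *Drp1* KO (1.01 ± 0.22, adjusted p = 0.0383). The call was lost without WT libraries 2 (0.199) or 3 (0.178) and without *Drp1* KO libraries 1 (0.0734) or 2 (0.152). *Foxo3* was at 392 ± 29.6 CPM and 298 ± 25.6 CPM without overlap (-0.40 ± 0.10, adjusted p = 0.0725, and 0.00494 with pairing). *Chac1* was at 1.10 ± 0.481 CPM and 2.23 ± 0.835 CPM (1.01 ± 0.38, adjusted p = 0.207). With pairing, 4 genes of the list were called higher, *Trib3*, *Chac1*, *Atf4* and *Ddit3*, and 2 lower, *Foxo3* and *Jun*. In that fit 12.0% of all genes were called.

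For scale, 10 interferon-stimulated genes were read in the same fit as a reference for a strong difference between these genotypes. The list was chosen with earlier results of these data known, so its calls are no independent result. All 10 were called higher, against 2.29% of all genes tested. They ran from 0.59 ± 0.11 for *Irf1* to 3.16 ± 0.21 for *Usp18*, and *Irf7*, *Ifit1*, *Ifit3*, *Isg15*, *Mx1*, *Stat2* and *Oas1a* were among those between. Their median of 1.92 compares with 0.17 for the members. The call of *Oas1a* was lost without WT library 2 (0.0539), and that of *Irf1* without WT libraries 2 (0.142) or 3 (0.125) or *Drp1* KO libraries 2 (0.0859) or 3 (0.0679) and with length-scaled counts (0.0781).

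**Figure D5:**
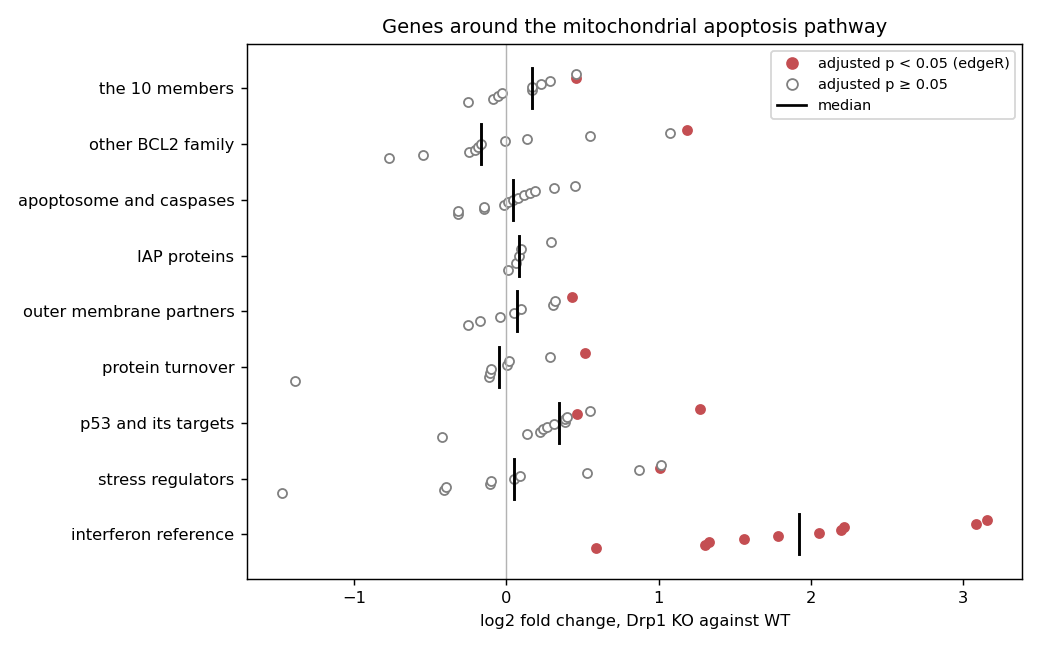
Log2 fold change in *Drp1* KO against WT of each tested gene in the 10 members and in 8 related lists, with called genes (adjusted p under 0.05, edgeR without pairing) in red and the median of each list as a black line. The medians of the members and the pathway lists lie between -0.16 and 0.35, and that of the interferon genes is 1.92.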

How the data were processed

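Poly(A) RNA of 6 BMDM libraries was sequenced with paired ends. The authors quantified reads with kallisto 0.46.1 on Ensembl GRCm39 cDNA and deposited, per transcript, estimated counts that are neither whole nor scaled between libraries. They also deposited TPM values, used here for levels and transcript shares. Per the labels the kit was stranded, and how kallisto handled strand is not given in the sources used here.

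By identifier, 116159 of 116873 transcripts (99.4%) matched GENCODE vM39, and 0.542% to 0.575% of each library's reads lay on the others and were left out. Estimated counts were summed per gene, rounded, and genes with at least 10 in total were tested with edgeR 4.0.16 (R 4.3.3, TMM, quasi-likelihood test, no covariate), the study itself having used DESeq2. A level of 3 counts is 0.0917 to 0.136 CPM, which covers counting error only. The groups share replicate numbers, and same-numbered libraries deviated together (correlations 0.539, 0.218 and 0.352 over 12248 genes, all over 0.1), so the numbers were taken as pairs from the data. WT library 2 correlated more with *Drp1* KO library 3 (0.339) than with library 2, so the data do not single out the pairing of libraries 2 and 3. DESeq2 1.42.0, limma-voom (limma 3.58.1), other scalings and filters, and each library left out were alternatives, and leaving out both libraries numbered 1 and the fit over transcripts were added after seeing the data. Sequences were read from the GRCm39 genome.

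The members and lists were chosen with earlier results of these data known. All members are named, and from each other list every called gene or, with fewer than 3, those with the smallest p up to 3. *Aifm1*, *Zmat3*, *Cdkn1a*, *Phlda3*, *Trp53*, *Atf4*, *Ddit3*, *Jun*, *Bcl2l10*, *Hrk*, *Csf3r* and *Mki67* were named after their values were seen. Some genes of the lists are counted but not reported by name here.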

Additional observations from a re-analysis of the deposited data

How the results depend on the processing

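The count of members called, 1, became 2 with the replicate block (pairing), which added *Bbc3*, and 0 with limma-voom, with size factors by the median of ratios and with length-scaled counts, where *Bcl2* was lost. With a library left out it ran from 0 to 1. By the study's thresholds the count of 1 became 2 with the replicate block, with no filter beyond 1 count and without both libraries numbered 1, and 1 to 3 with a library left out. Over all genes, 621 were called, 2212 with the replicate block, 1155 with DESeq2, 1065 with no filter beyond 1 count, 1880 without both libraries numbered 1, and 181 to 904 with a library left out. The members' median log2 fold change ran from -0.037 to 0.28 with a library left out, and the cause was not tested. Signs turned with a library left out for *Bcl2l1* (-0.057 to 0.59), *Bcl2a1b* (-0.00035 to 0.40), *Bax* (-0.20 to 0.015), *Bak1* (-0.017 to 0.29), *Bcl2l11* (-0.12 to 0.035) and *Pmaip1* (-0.51 to 0.22), and for *Pmaip1* without both libraries numbered 1 (0.14). The block changed no other member's call. The sum of the Bcl2a1 copies kept its direction in the alternatives run for it, from 0.20 to 0.53 with a library left out, 0.21 from TPM, 0.33 with library size only and 0.32 with the replicate block. Transcript shares gave 4 without overlap from TPM and from counts. Differences for *Bid* and *Bbc3* are limited by the spread over 3 libraries, and those for the rarer Bcl2a1 copies by the uncertain assignment of reads between copies.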

Other observations

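Of the 8 macrophage markers, 3 were called, against 3.36% of all genes tested. *Fcgr1*, the high-affinity Fc receptor gene, rose from 65.8 ± 7.22 CPM in WT to 167 ± 13.7 CPM in *Drp1* KO BMDMs (SD, n = 3 per genotype, adjusted p = 0.000322, edgeR). *Csf1r*, which encodes the receptor for the macrophage growth factor M-CSF, fell from 953 ± 39.0 CPM to 666 ± 81.8 CPM (log2 fold change -0.52 ± 0.11, adjusted p = 0.0340). *Mertk*, a receptor for apoptotic cells, fell from 249 ± 21.1 CPM to 173 ± 14.3 CPM (-0.52 ± 0.10, adjusted p = 0.0236). The call of *Csf1r* was lost when WT library 1 (0.0635), 2 (0.133) or 3 (0.133) was left out, when library 2 (0.125) or 3 (0.0788) of *Drp1* KO was, and with length-scaled counts (0.208). That of *Mertk* was lost without WT libraries 2 (0.101) or 3 (0.118) or *Drp1* KO libraries 2 (0.0840) or 3 (0.0621).

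No cycling, dendritic cell, fibroblast or lymphocyte marker was called by edgeR without pairing, where 0, 1, 0 and 2 had an unadjusted p under 0.05 and DESeq2 called 0, 0, 0 and 1. The lymphocyte marker was *Cd4*, at 313, 319 and 303 CPM in WT and 137, 245 and 119 CPM in *Drp1* KO (-0.90 ± 0.22, adjusted p = 0.0595, and 0.00228 with pairing, edgeR). With pairing, 1 cycling marker was also called lower, *Mki67*, at 239, 199 and 184 CPM in WT and 225, 138 and 135 CPM in *Drp1* KO (-0.36 ± 0.091, adjusted p = 0.0279, edgeR with pairing).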
